A study of Homo sapiens with 6 samples.

Results

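The comparison described here set H2170 cells expressing ACK1 (IDRmut)-GFP, called IDRmut, against H2170 cells expressing GFP alone, called Control, with 2 RNA-seq libraries in each group. These are 4 of the 6 libraries of the study, chosen by their count columns. The other 2 came from cells expressing ACK1 (WT)-GFP, called WT, and serve below as a reference for the normal form of the protein. H2170 is an established line of human lung squamous cell carcinoma, and each group carries a GFP sequence, alone or fused to ACK1. The labels give no passage, clone, promoter or time after introduction of the constructs, and they do not list the altered residues. Whether the replicates were grown as separate cultures is not stated, so the p-values reflect the spread among these libraries alone, and that spread may be technical.

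ACK1, encoded by TNK2, is a non-receptor tyrosine kinase that binds the activated form of the small GTPase CDC42, associates with clathrin, and is recruited to growth factor receptors at the cell surface. Intrinsically disordered regions are protein segments without a fixed fold, and many proteins gather into condensates, local assemblies without a membrane, through such segments. STAT5A and STAT5B are transcription factors that are activated by tyrosine phosphorylation and induce genes downstream of cytokine receptors. IDR is read here as intrinsically disordered region. The series title names ACK1 condensates and STAT5 activation in lung squamous carcinoma cells as its subject, and the question put to these libraries is how the transcript levels of cells with the mutant protein differed from those of cells with GFP alone.

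Levels are CPM, the deposited counts scaled to library size with TMM factors, a method that aligns the bulk of genes between libraries. Pairs of values are given in the order Control 1 and Control 2, then IDRmut 1 and IDRmut 2. Differences are log2 fold changes, IDRmut minus Control, ± SE from edgeR's fit with n = 2 libraries per group, and a gene was called when its adjusted p in edgeR's quasi-likelihood test (Benjamini-Hochberg adjustment over all genes tested) was under 0.05. "Rose" and "fell" are used of called genes only. The 4 libraries held between 19128111 and 21922477 counts, and 16591 genes passed the filter on low counts. In bulk samples such as these, fewer cells of a kind and less RNA per cell cannot be told apart.

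The libraries were checked against markers of lung squamous carcinoma and of other cell types. Of 10 squamous markers 8 passed the filter, with SOX2 at 351 and 327 CPM in Control and 298 and 289.8 CPM in IDRmut and KRT14 at 1414 and 1434 CPM in Control and 993 and 888 CPM in IDRmut. Of these 8, TP63, KRT5, KRT6A and DSG3 rose and SOX2 and KRT14 fell, with a median of 0.2, and their summed level, carried mostly by KRT14, was 2196 and 2211 CPM in Control and 1857 and 1702 CPM in IDRmut. EPCAM and CDH1, which define epithelium, were near 0, with at most 3 counts in each of the 4 libraries, as were the desmosome genes DSC3 and PKP1 with at most 4. None of 14 leukocyte markers passed the filter. Of genes usual for fibroblasts and endothelium only some were present. COL1A2 was at 819.9 and 839 CPM in Control and 909.9 and 849 CPM in IDRmut. PDGFRA had 1113 and 1099 counts in Control and 1163 and 1283 in IDRmut. COL1A1, however, had 11 and 7 counts in Control and 33 and 39 in IDRmut. Of 9 fibroblast markers 3 had at most 5 counts in each of the 4 libraries. CDH5 was at 210.3 and 216 CPM in Control and 93.97 and 90.5 CPM in IDRmut. PECAM1, also of endothelium, had 1 and 0 counts in Control and 7 and 2 in IDRmut. The summed endothelial markers were 223.6 and 229.8 CPM in Control and 108.5 and 105 CPM in IDRmut, mostly CDH5. Of 6 endothelial markers tested CDH5, KDR and ESAM fell, while TEK rose from 1.07 and 1.08 to 2.75 and 2.55 CPM and EGFL7 rose from 2.13 and 2.098 to 4.96 and 4.09 CPM. These mixed marker levels do not settle the identity of the line, which rests on the labels and was not tested. The part of cell identity in the results below was not tested either.

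TNK2, the gene of ACK1, was far higher in IDRmut than in Control. It (ENSG00000061938) lies on chromosome 3 from 195863364 to 195911945 on the minus strand, and it was measured at 41.1 and 43.1 CPM in Control and 1762 and 1455 CPM in IDRmut, a difference of 5.25 ± 0.08 (edgeR adjusted p = 1.8e-17). The 2 IDRmut libraries were further apart than the 2 Control libraries, though the groups were well separated. In WT the gene stood at 3514 and 3613 CPM, so TNK2 was lower in IDRmut than in WT by 1.15 on the log2 scale, and every difference between IDRmut and WT below was measured together with that difference in TNK2 level. Reads of the introduced construct and of the endogenous gene cannot be told apart. STAT5A and STAT5B, the transcription factors of the study's question, did not pass the test: STAT5A was measured at 5.68 and 4.63 CPM in Control and 6.09 and 5.78 CPM in IDRmut (0.20 ± 0.14, edgeR adjusted p = 0.31) and STAT5B at 45.8 and 49.05 CPM in Control and 51.1 and 53.8 CPM in IDRmut (0.15 ± 0.06, edgeR adjusted p = 0.058).

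Of the 16591 genes tested, 5237 were called, which is 31.6%. They were split almost evenly, with 2591 higher in IDRmut (15.6%) and 2646 lower (15.9%), and the median difference over all genes was 0.00348. DESeq2 called 3290 genes, and leaving out the first Control library left 3451. Rises made up 49.5% of calls with TMM, 58.1% with upper-quartile scaling and 60.2% with library totals alone. A change of at least 2-fold was reached by 718 genes that rose (4.33%) and 144 that fell (0.868%), so large changes were mostly rises. Most changes were small: 35.2% of calls were under 1.2-fold and another 35.7% lay between 1.2-fold and 1.5-fold. At the other end 87 genes rose and 2 fell by 16-fold or more by the fitted value.

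Direction and size went with the level of the gene. Below 1 CPM on average over the 6 libraries, 275 genes rose and 60 fell. Over all genes tested, called or not, the median difference was 0.204 below 1 CPM and 0.117 between 1 and 5 CPM. Between 20 and 100 CPM the order was reversed, with 805 risen and 1186 fallen, and between 100 and 500 CPM 330 rose and 740 fell. The median size of a called change dropped by bin from 1.83 on the log2 scale below 1 CPM to 0.452 between 5 and 20 CPM and 0.189 at 500 CPM and over. The share of genes called went the other way, from 12.8% below 1 CPM to 50% between 100 and 500 CPM and 57% above, where counts allow smaller changes to be seen. Genes called up by 4-fold to 16-fold had a median Control level of 0.206 CPM, against 67.7 CPM for those up by under 1.2-fold. Both patterns in size are partly set by the measure. Control level is the denominator of the fold, and low counts allow only large changes to be called. The median SE was 0.441 below 1 CPM and 0.0347 at 500 CPM and over. The excess of rises among low genes was found with each scaling, at 82.1% to 84.4% of calls below 1 CPM. The excess of falls between 20 and 100 CPM was not: 40.4% of calls there were rises with TMM, against 51% with upper-quartile scaling and 53.7% with library totals alone. By annotation, 36.8% of 12928 protein-coding genes were called, 19.4% of 715 lincRNAs, 8.97% of 602 processed pseudogenes and 8.22% of 998 antisense genes, and lower levels and shared reads in the last 2 classes limit what can be called.

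**Figure D1:**
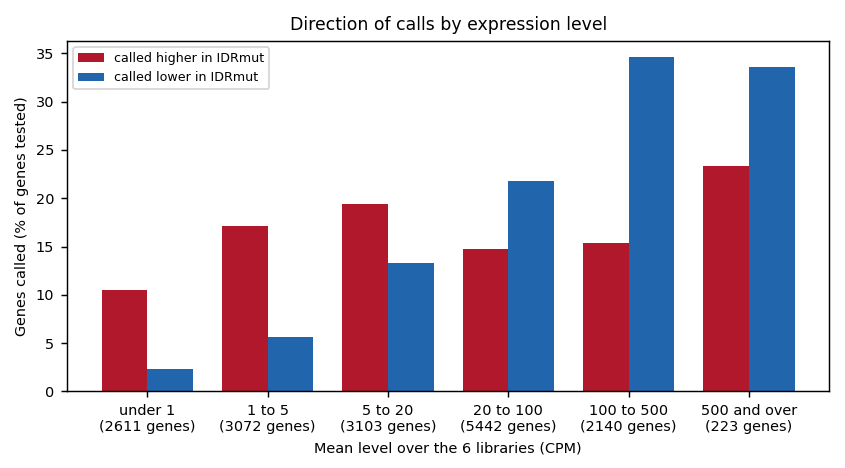
Genes called higher (red) or lower (blue) in IDRmut than in Control, as percent of the genes tested in each bin of mean level over the 6 libraries (CPM, x axis). Rises outnumber falls below 20 CPM, and falls outnumber rises from 20 CPM upwards, with 330 risen and 740 fallen between 100 and 500 CPM.

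The IDRmut libraries agreed well with each other, although less closely than the Control libraries did. Over 10908 genes whose mean reached 5 CPM, the median distance between replicates on the log2 scale was 0.0782 in IDRmut and 0.0567 in Control, and 5.99% and 3.5% of genes differed by more than 1.2-fold between replicates. Of the called genes, 4203 averaged 5 CPM or more, and in all 4203 both IDRmut libraries lay on the same side of the Control mean. That nearly follows from their selection as called genes and is no separate measure of agreement. Among 4202 of these with counts in every library the median distance between the 2 IDRmut libraries was 0.0731 on the log2 scale, against a median effect of 0.288, and 7 were over 1.5-fold apart. Over all called genes the groups did not overlap in 5233 of 5237. That is a property of nearly any called gene, and even among the genes not called 46.4% had groups that did not overlap. Over all genes tested the share was 63.3%.

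**Figure D2:**
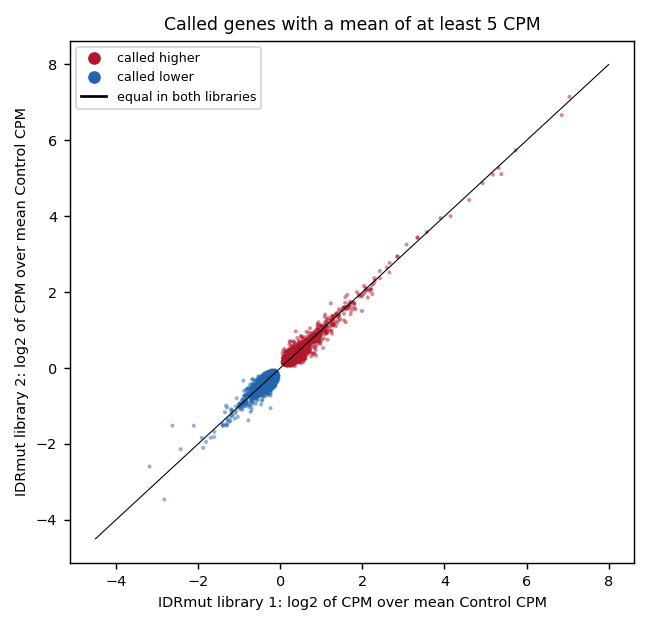
Change of each called gene that averaged 5 CPM or more, in IDRmut library 1 (x axis) and IDRmut library 2 (y axis), each as the log2 ratio of its CPM to the mean Control CPM. Red genes were called higher and blue genes lower, and the line marks equal change, from which the median distance is 0.0731.

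Among genes that averaged 20 CPM or more in IDRmut, the 10 that differed most between the 2 IDRmut libraries included 5 pseudogenes. MT-ATP8, a subunit of the mitochondrial ATP synthase, stood at 52.3 and 68.7 CPM in Control and 49.98 and 92.2 CPM in IDRmut, and 22.2% of its exon bases overlap another gene. SMN1, a gene with a near-identical copy that encodes a protein of splicing particle assembly, stood at 35.6 and 24.2 CPM in Control and 15.9 and 28.01 CPM in IDRmut. Both had overlapping groups, and 9 of the 10 genes were not called. The exception was RPL7AP6, a pseudogene of a ribosomal protein gene, at 16.9 and 18.6 CPM in Control and 21.1 and 29.01 CPM in IDRmut, a call lost without the first Control library.

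The 15 largest rises among genes that averaged 5 CPM or more were of several kinds. Beside TNK2 they held 7 interferon-induced genes (IFI44L, MX1, OAS1, OAS2, TRIM22, IFIT1 and IFIT3), and beside those the heparan sulfate editing enzyme SULF1, the chemokine CXCL14, the inflammasome sensor NLRP1, the ferroxidase CP, the histone variant MACROH2A2, the keratin KRT8 and the non-coding LINC02725. CXCL14, a chemokine made by epithelia, rose from 0.406 and 0.645 to 69.4 and 74.5 CPM, by 7.09 ± 0.31 (edgeR adjusted p = 6.3e-16). Both IDRmut libraries stood far above Control and also above WT, at 12.05 and 12.8 CPM. CP, or ceruloplasmin, a copper-carrying enzyme that oxidizes iron, rose from 1.37 and 1.02 to 10.9 and 11.96 CPM, by 3.25 ± 0.22, with WT at 2.16 and 1.73 CPM. MACROH2A2, which encodes a histone variant of repressed chromatin, rose from 1.37 and 1.61 to 9.03 and 9.37 CPM, by 2.62 ± 0.19, with WT at 12.8 and 11.3 CPM. LINC02725 rose from 3.297 and 3.17 to 23.6 and 24.7 CPM, by 2.90 ± 0.13, with WT between the groups at 9.26 and 9.54 CPM.

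The largest falls were smaller than the largest rises. MAF, a bZIP transcription factor of lens, immune and other lineages, fell from 22.9 and 20.2 to 3.04 and 1.96 CPM, by 3.12 on the log2 scale (edgeR adjusted p = 1.1e-10). H19, an imprinted non-coding RNA, fell from 60.3 and 57.3 to 6.48 and 9.73 CPM, by 2.85. Both were also low in WT, MAF at 2.204 and 1.64 CPM and H19 at 7.15 and 6.26 CPM, and neither was called between IDRmut and WT. DAB1, an adaptor of reelin signalling that binds endocytic receptors, fell from 17.7 and 19.1 to 3.44 and 4.18 CPM, by 2.27, and was also lower than in WT, which stood at 8.08 and 7.3999 CPM. CES1, a carboxylesterase that hydrolyses esters and lipids, fell from 159 and 165 to 43.2 and 45.4 CPM, and KCND3, a voltage-gated potassium channel, fell from 248 and 255 to 82.9 and 78.5 CPM. Both fell from substantial levels, and the 2 libraries of each group lay close together.

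**Figure D3:**
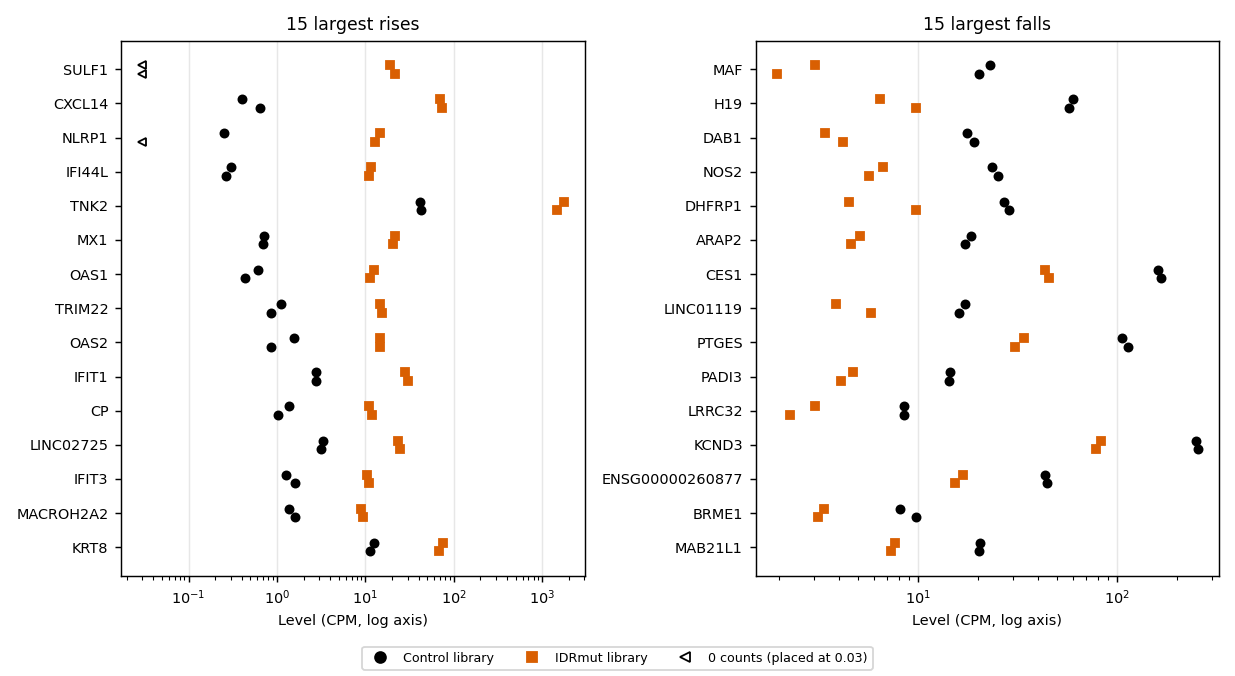
Level of the 15 largest rises (left) and 15 largest falls (right) in each library, in CPM on a log axis. Black circles are the 2 Control libraries and orange squares the 2 IDRmut libraries, with open triangles for 0 counts. The genes were chosen as called genes with the largest changes and with groups that do not overlap, so the gap between groups follows from that choice.

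Some genes were nearly silent in Control and read in both IDRmut libraries. With no more than 3 counts in Control and 40 or more in IDRmut, each summed over 2 libraries, there were 44 such genes, against 1 in the other direction. SULF1, which removes sulfate groups from heparan sulfate at the cell surface, had 0 and 0 counts in Control and 384 and 474 in IDRmut, at least 258.7-fold higher when 3 counts over the group are taken as the floor. FLRT2, a cell adhesion and guidance protein, had 0 and 0 counts against 156 and 138, at least 88.63-fold higher. ADGRL4, an adhesion G protein-coupled receptor, had 0 and 0 against 90 and 87, at least 53.36-fold higher. Neither SULF1 nor FLRT2 was called between IDRmut and WT, and SULF1 stood at 19.3 and 20.1 CPM in WT. MUC13, a transmembrane mucin, had 0 and 0 counts in Control and 3.78 and 3.68 CPM in IDRmut, which was also above WT at 1.37 and 1.84 CPM. AMPD1, an AMP deaminase, had 1 count in Control, and the ratio of 178.2 has a 95% counting interval from 31.6 to 7072. RNU6-1 was the gene in the other direction, with 57 and 55 counts in Control, 1 and 2 in IDRmut and 0 and 0 in WT. It encodes the small nuclear RNA U6, which has no poly-A tail and many copies. These intervals and floors cover counting error only, since reads amplified by PCR and counted with no molecular identifier are not independent molecules.

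Genes were then grouped by function into 52 lists beside the marker lists. The lists with the largest shares of members risen were interferon effectors, integrated stress and antigen presentation, and those with the largest shares fallen were DNA replication, mitosis and DNA repair. Ribosome biogenesis genes and cytosolic ribosomal proteins had smaller shares risen and no falls. The shares to hold them against are those over all genes, 15.6% higher and 15.9% lower. For lists of highly expressed genes the share called of 50% between 100 and 500 CPM is the closer reference.

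**Figure D4:**
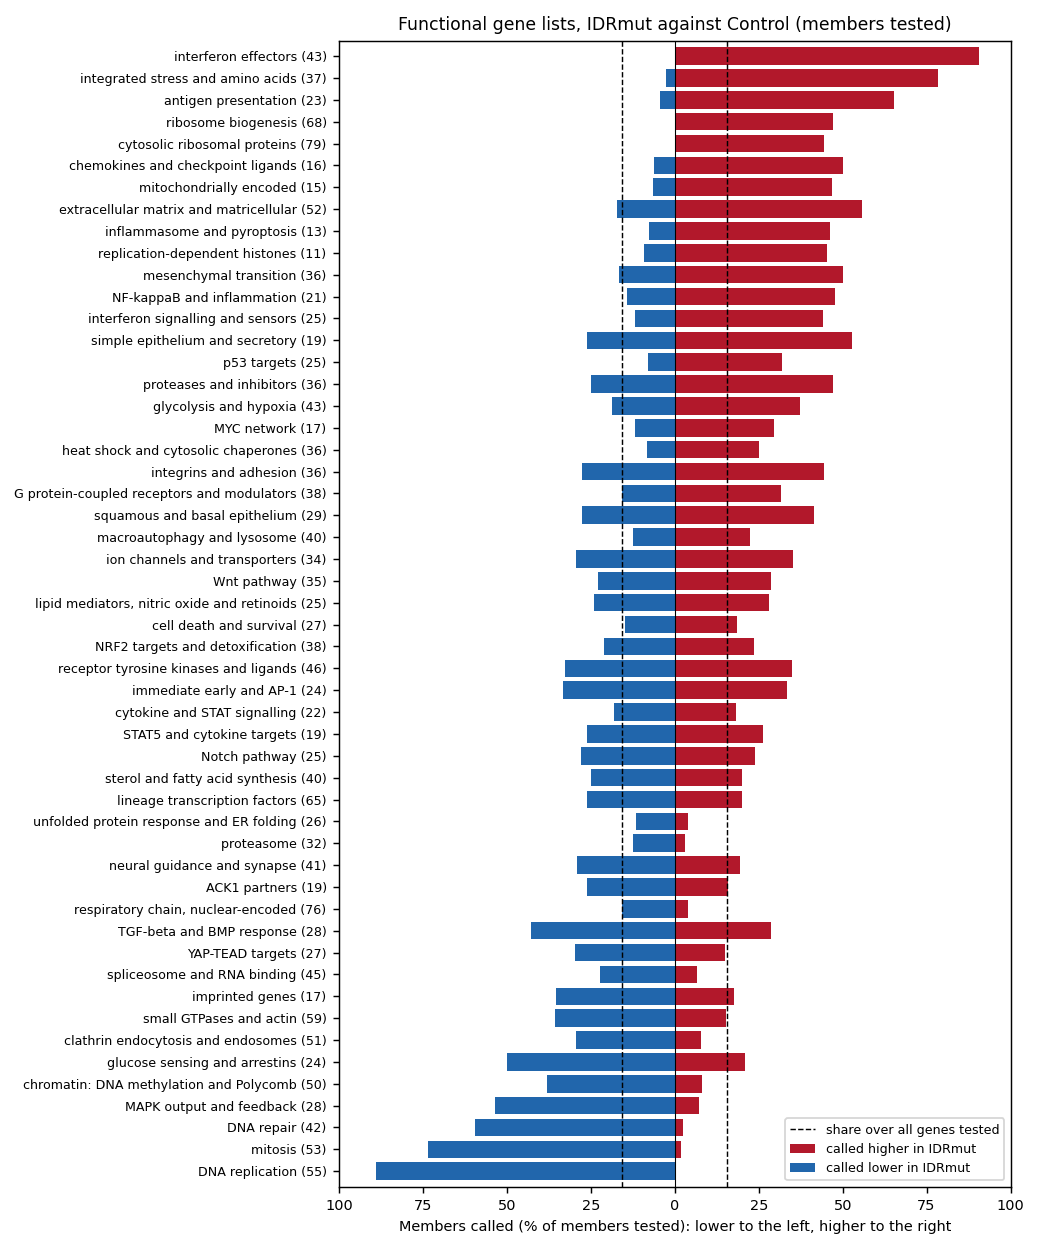
Members called higher (red, to the right) and lower (blue, to the left) in IDRmut than in Control, as percent of the members tested of each functional list, with the number tested in brackets. Dashed lines mark the shares over all genes, 15.6% and 15.9%. Interferon effectors (39 of 43 higher) and DNA replication (49 of 55 lower) stand at the ends.

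Interferons are secreted proteins that signal through JAK kinases to transcription factors, STAT2 and IRF9 among them, which bind a short element in the promoters of antiviral genes. Of 43 interferon effectors tested, 39 rose and none fell, with a median of 1.07, and 23 rose at least 2-fold. The medians of the 2 IDRmut libraries were 0.948 and 0.938 over the Control mean, so both libraries carried the rise. IFI44L, an interferon-induced gene, rose from 0.304 and 0.269 to 11.4 and 11.1 CPM, by 5.26 ± 0.39. MX1, an antiviral GTPase, rose from 0.7102 and 0.699 to 21.5 and 20.6 CPM, by 4.89 ± 0.24 (edgeR adjusted p = 2.9e-13). OAS1, which makes the second messenger that activates RNase L, rose from 0.609 and 0.4303 to 12.6 and 11.2 CPM, by 4.49 ± 0.30. Such genes went from about the limit of detection to a moderate level. IFI27 rose from 0.203 and 0.699 to 8.003 and 7.23 CPM (4.08 ± 0.38), and ISG15, a ubiquitin-like protein attached to other proteins, rose from 4.16 and 4.63 to 20.3 and 18.5 CPM (2.14 ± 0.12). EIF2AK2, the kinase PKR that halts translation on double-stranded RNA, was already at a high level and rose only from 121 and 117 to 147 and 154 CPM (0.34 ± 0.04), and the RNA editor ADAR rose from 371 and 372 to 400.1 and 396 CPM (0.10 ± 0.03), a call lost when either Control library was left out. RSAD2, which makes an antiviral nucleotide, had 3 counts in Control and 84 and 91 in IDRmut, a ratio of 52.76 with a 95% counting interval from 17.8 to 258. IFIT genes have close paralogs, so counts may be split or shared between them.

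Most effectors were lower in IDRmut than in WT. The comparison with WT comes from the same fit and uses the same IDRmut libraries, so its calls are not independent of those against Control. Against WT, 32 of the 43 effectors were lower in IDRmut and 2 higher, where 14.2% and 12.3% of all genes were lower and higher, 26.5% in all. MX1 stood at 37.6 and 38.6 CPM in WT and IFIT1 at 61.8 and 62.4 CPM, against 28.4 and 30.2 CPM in IDRmut and 2.79 and 2.797 CPM in Control. TRIM22, an antiviral ubiquitin ligase, was an exception, with 14.8 and 15.3 CPM in IDRmut and 13.8 and 14.9 CPM in WT.

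Signalling genes of the same system moved less than its effectors. Of 25 sensors and signalling genes, 11 rose and 3 fell, the 3 becoming 1 when either Control library was left out, with a median of 0.204. STAT2 rose from 37.2 and 38.2 to 44.8 and 47.1 CPM (0.29 ± 0.06), and IRF9 rose from 1.93 and 1.56 to 4.81 and 4.41 CPM (1.39 ± 0.20), with 48.4% of its exon bases shared with other genes. The RNA sensors IFIH1 and DHX58 rose from 9.69 and 8.77 to 19.7 and 20.4 CPM and from 1.67 and 1.94 to 8.49 and 8.23 CPM, and the DNA sensor IFI16 rose from 19.99 and 19.95 to 39.1 and 42.8 CPM. IRF7, which amplifies interferon production, stood at 1.22 and 0.968 CPM in Control and 1.18 and 0.955 CPM in IDRmut and was not called, and neither was the kinase JAK1 at 157 and 161 CPM in Control and 145 and 151 CPM in IDRmut. Both factors and the 3 sensors named rose, then, while IRF7 and JAK1 did not pass the test.

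These factors bind the interferon-stimulated response element, searched on both strands as GAAA, any 2 bases and GAAA again. The promoters shown were picked for holding it, and belong to the 4 effectors with the largest fitted rises among those with a match; some effectors without a match or a promoter sequence rose more than IFIT1. Each is 250 bases before and 50 after the start of transcription, from RefSeq on GRCh38.p14, 5′ to 3′ in the direction of the gene, with matches in capitals.
IFI44L (chr1:78620198-78620497, plus strand): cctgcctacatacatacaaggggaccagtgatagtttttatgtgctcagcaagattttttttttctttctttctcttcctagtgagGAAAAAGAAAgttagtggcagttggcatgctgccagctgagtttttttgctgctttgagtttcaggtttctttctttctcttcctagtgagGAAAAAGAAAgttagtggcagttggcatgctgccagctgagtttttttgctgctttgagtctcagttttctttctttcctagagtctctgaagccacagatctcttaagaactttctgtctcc
MX1 (chr21:41420308-41420607, plus strand): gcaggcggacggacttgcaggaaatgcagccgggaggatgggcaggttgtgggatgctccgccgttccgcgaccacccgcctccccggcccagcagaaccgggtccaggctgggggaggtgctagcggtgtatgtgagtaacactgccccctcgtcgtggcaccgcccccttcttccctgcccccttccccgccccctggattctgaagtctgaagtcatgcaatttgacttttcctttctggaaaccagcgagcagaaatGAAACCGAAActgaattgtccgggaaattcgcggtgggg
IFI27 (chr14:94110486-94110785, plus strand): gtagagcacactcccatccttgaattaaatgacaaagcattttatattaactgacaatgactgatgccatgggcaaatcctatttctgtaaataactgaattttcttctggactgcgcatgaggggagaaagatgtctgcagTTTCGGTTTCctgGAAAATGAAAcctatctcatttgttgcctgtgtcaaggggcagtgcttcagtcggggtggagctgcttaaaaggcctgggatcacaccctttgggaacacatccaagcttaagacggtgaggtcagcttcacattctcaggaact
IFIT1 (chr10:89392373-89392672, plus strand): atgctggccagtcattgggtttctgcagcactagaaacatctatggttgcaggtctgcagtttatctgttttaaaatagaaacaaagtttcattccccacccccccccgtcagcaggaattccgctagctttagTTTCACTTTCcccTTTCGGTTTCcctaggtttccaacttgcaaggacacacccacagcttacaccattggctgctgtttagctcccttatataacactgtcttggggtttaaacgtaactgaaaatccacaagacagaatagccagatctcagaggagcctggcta
The element had 2 matches in IFI44L, IFI27 and IFIT1 and 1 in MX1. It was found in 22 of 34 effectors with a promoter sequence (64.7%), against 3.65% of all 27305 promoters and 2.78% of the 11382 of genes tested. The median difference was 0.999 for the 22 effectors with a match and 0.987 for the 12 without. A match is a description of letters in this window and not evidence of binding.

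Antigen presentation by class I molecules displays peptides on the cell surface, and its genes are interferon-inducible. Of 23 members tested 15 rose and 1 fell, with a median of 0.492. HLA-B rose from 52.04 and 53.2 to 222 and 214 CPM, by 2.05 ± 0.04 (edgeR adjusted p = 3.5e-15), with 18.9% of its exon bases overlapped. HLA-C rose from 104 and 109 to 218 and 214 CPM (1.03 ± 0.04), and B2M, the shared light chain, rose from 683 and 671 to 931 and 1007 CPM (0.52 ± 0.04). These heavy chains and the light chain, picked for a small adjusted p or a high level, rose at high levels. HLA-B, HLA-C, HLA-F and B2M were also called higher than in WT, where HLA-B stood at 160.03 and 159.7 CPM, and for the whole list 7 members were higher than in WT and 5 lower. The immunoproteasome subunits PSMB8 and PSMB9 rose from 20.6 and 23.4 to 29.7 and 32.6 CPM and from 4.36 and 4.79 to 9.03 and 7.91 CPM. CANX, an ER chaperone on the list, fell from 1646 and 1611 to 1469 and 1547 CPM, by 0.11, a call lost when either Control library was left out. HLA genes are near-identical in parts, so reads may be misassigned among them.

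Inflammasome genes sense intracellular danger and open membrane pores. Of 13 tested 6 rose and 1 fell, with a median of 0.291. NLRP1, a sensor of proteases and double-stranded RNA in epithelia, had 5 and 0 counts in Control and rose from 0.254 and 0 to 14.7 and 12.9 CPM, by 6.66 ± 0.72. CASP1, the protease it activates, rose from 0.101 and 0.108 to 1.28 and 1.73 CPM and GSDMB, of the pore-forming gasdermin family, rose from 3.96 and 3.496 to 5.79 and 6.69 CPM. Both were called higher than in WT. IL18, a cytokine processed by this system, stood at 156 and 152 CPM in Control and 153 and 168 CPM in IDRmut and was not called. The protease DPP9, which restrains NLRP1, fell from 92.9 and 97.8 to 86.9 and 79.7 CPM, a call lost without the second Control library, with 18.3% of its exon bases overlapped. The list therefore changed mainly at the sensor and the caspase.

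Of 16 chemokines and checkpoint ligands 8 rose and 1 fell, with a median of 0.32, or 0.276 with the genes at 0 Control counts set at their bound. TNFSF10, the death ligand TRAIL, rose from 3.25 and 4.41 to 13.99 and 15.3 CPM (1.94 ± 0.14), and CX3CL1, a membrane-bound chemokine, rose from 22.2 and 25.7 to 52.8 and 46.3 CPM (1.05 ± 0.08). CXCL10, a T cell chemoattractant, had 0 and 0 counts in Control and 0.393 and 0.364 CPM in IDRmut, against 2.99 and 2.95 CPM in WT. Among 21 genes of NF-kappaB signalling and inflammation 10 rose and 3 fell, with a median of 0.47, but the 10 became 6 without the first Control library and 4 among genes averaging 5 CPM or more. CCL2, a monocyte chemoattractant, rose from 61.6 and 61.04 to 94.02 and 101.2 CPM, complement C3 rose from 0.101 and 0.269 to 2.55 and 3.001 CPM, and BIRC3, an inhibitor of cell death, rose from 26.2 and 22.6 to 38.2 and 42.9 CPM. NFKBIZ, a nuclear regulator of NF-kappaB, fell from 35.8 and 33.1 to 24.9 and 24.4 CPM, and the subunit RELA stood at 95.2 and 102 CPM in Control and 105 and 98.2 CPM in IDRmut and was not called. The 3 falls became 1 without the first Control library.

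The targets of STAT5 and of cytokine receptors showed no common direction. Of 19 tested 5 rose and 5 fell, with a median of 0.053. SOCS2, a STAT5-induced feedback inhibitor, rose from 1.37 and 1.34 to 3.93 and 4.05 CPM (1.55 ± 0.20), below the 7.15 and 7.25 CPM of WT. CISH, the other feedback inhibitor most closely tied to STAT5, was at 0.304 and 0.4303 CPM in Control and 0.736 and 0.819 CPM in IDRmut and missed the threshold with an edgeR adjusted p = 0.055. MYC, a transcription factor of growth, rose from 107 and 104 to 156 and 145 CPM (0.51 ± 0.05), and was also above WT at 96.8 and 101.3 CPM. CDKN1A, the cell cycle inhibitor p21, rose from 26.6 and 26.9 to 42.2 and 38.6 CPM, and the cyclin CCND3 rose from 76.95 and 74.6 to 100.6 and 91.5 CPM. MCL1 and BCL2L1, survival proteins of the BCL2 family, fell from 468 and 463 to 409 and 420.3 CPM and from 173 and 185 to 157 and 157 CPM, the latter with 43% of its exon bases overlapped and a call lost without the second Control library, and ID1 fell from 214 and 206 to 188 and 168 CPM. Against WT 4 of the 19 were higher and 7 lower. Of 22 genes of cytokine and STAT signalling 4 rose and 4 fell, 36.4% against 31.6% over all genes, with a median of 0.0119. The 4 falls became 2 without the first Control library, and the 4 rises became 8 with upper-quartile scaling or library totals. STAT3 rose from 300.5 and 299 to 386 and 395 CPM and SOCS5, another feedback inhibitor, rose from 74.1 and 71.9 to 126 and 125 CPM, whereas the receptor ERBB2 fell from 128 and 129 to 116 and 105 CPM and the phosphatase PTPN1 fell from 193 and 193 to 170.4 and 168 CPM.

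Genes of proteins that bind or are modified by ACK1 changed in both directions. Of 19 tested, TNK2 included, 3 rose and 5 fell, 42.1% against 31.6% over all genes, with a median of 0.0116. The 3 rises became 1 when either Control library was left out. AXL, a receptor tyrosine kinase, fell from 288 and 290.4 to 205 and 191 CPM, and was also below WT at 362 and 368 CPM. The kinase AKT1 fell from 122 and 126 to 109 and 97.05 CPM, the ubiquitin ligase NEDD4L fell from 71.7 and 71.2 to 51.9 and 54.6 CPM, and WWOX, a tumour suppressor that ACK1 phosphorylates, fell from 13.5 and 13.3 to 10.3 and 9.78 CPM. CLTC, the clathrin heavy chain, stood at 829 and 839 CPM in Control and 834 and 859 CPM in IDRmut and was not called.

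Most genes of DNA replication were lower. Of 55 tested 49 fell, 6 were not called and none rose, with a median of -0.276, and the medians of the 2 IDRmut libraries were -0.299 and -0.284. None fell by 2-fold. With upper-quartile scaling 1 member was called higher. E2F1, a transcription factor that induces S phase genes, fell from 147 and 144 to 96.8 and 85.5 CPM, by 0.67. POLA1, the catalytic subunit of the polymerase that primes DNA synthesis, fell from 142 and 145 to 92.3 and 93.96 CPM, by 0.63 (edgeR adjusted p = 6.9e-09). MCM3 and MCM7, subunits of the replicative helicase, fell from 425 and 422 to 316 and 314 CPM and from 469.9 and 482 to 378 and 357 CPM. TYMS, which makes thymidylate, fell from 110.1 and 114 to 77.3 and 75.8 CPM, with 46.6% of its exon bases overlapped, RRM2, the small subunit of ribonucleotide reductase, fell from 651 and 635 to 457 and 461 CPM, with 20.2%, and CLSPN, a fork and checkpoint protein, fell from 98.8 and 99.8 to 67.7 and 67.9 CPM. The genes named cover a factor, the helicase, a polymerase and nucleotide supply. They were picked for a small adjusted p or a high level, so the gap between their groups follows largely from that choice. Against WT 26 of the 55 were lower and none higher.

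Mitotic genes fell with them. Of 53 tested 39 fell and 1 rose, with a median of -0.265. MYBL2, a transcription factor of late cell cycle genes, fell from 129 and 132 to 82.2 and 75.8 CPM, by 0.72, and MKI67, the proliferation antigen Ki-67, fell from 1188 and 1221 to 843 and 875 CPM, by 0.49 (edgeR adjusted p = 9.3e-09). The kinesin KIF4A fell from 192 and 189.96 to 142 and 144 CPM, the condensin subunits SMC2 and NCAPG fell from 149 and 149 to 109 and 110.5 CPM and from 195 and 197 to 144 and 152 CPM, and TOP2A, which untangles chromosomes, fell from 1004 and 1001 to 849 and 879.7 CPM. CDC20, the activator of the anaphase-promoting complex, was the 1 member that rose, from 140.5 and 146 to 176 and 160.3 CPM (0.23 ± 0.05), and it too was below WT, at 213 and 214 CPM. Against WT 45 of the 53 were lower, the largest such share among the lists, and 1 was higher, with MKI67 at 1099.5 and 1073 CPM in WT. Of 42 DNA repair genes 25 fell and 1 rose, with a median of -0.169, and 16 fell without the first Control library. The Fanconi anaemia genes FANCA, FANCI and FANCD2 fell from 97.2 and 98.9 to 72.96 and 70.6 CPM, from 182 and 187 to 144 and 147 CPM and from 138 and 133 to 108 and 112 CPM, the checkpoint kinase CHEK1 fell from 99.7 and 98.3 to 75.8 and 79.5 CPM, and XRCC5, an end-joining protein, fell from 438 and 439 to 402 and 408 CPM, a call lost when either Control library was left out.

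The promoters of CLSPN, TYMS and SPC25, the last a kinetochore gene that fell from 20.04 and 21.1 to 13.2 and 15.4 CPM, are shown with the elements tied to cell cycle genes, TTTCCCGC for E2F factors and TTTGAA for the cell cycle homology region, searched on both strands. These 3 were picked for holding the element, as the called members with the largest changes among those with a match. Some members of each list without a match or a promoter sequence fell more. The sequences come from RefSeq on GRCh38.p14 and run 5′ to 3′ along the gene. Capitals mark the E2F element in CLSPN and TYMS and the homology region in SPC25.
CLSPN (chr1:35769929-35770228, minus strand): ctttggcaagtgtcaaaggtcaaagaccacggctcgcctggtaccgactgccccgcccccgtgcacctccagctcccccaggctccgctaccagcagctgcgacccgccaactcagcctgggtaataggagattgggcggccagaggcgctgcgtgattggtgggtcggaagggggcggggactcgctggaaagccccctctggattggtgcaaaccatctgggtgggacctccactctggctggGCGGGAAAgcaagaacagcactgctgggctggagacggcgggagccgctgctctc
TYMS (chr18:657403-657702, plus strand): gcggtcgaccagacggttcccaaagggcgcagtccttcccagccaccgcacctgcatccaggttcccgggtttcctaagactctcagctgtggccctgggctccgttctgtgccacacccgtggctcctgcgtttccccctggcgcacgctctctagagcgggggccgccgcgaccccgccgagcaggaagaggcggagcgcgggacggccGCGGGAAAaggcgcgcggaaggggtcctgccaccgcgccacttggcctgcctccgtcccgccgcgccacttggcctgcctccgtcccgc
SPC25 (chr2:168890381-168890680, minus strand): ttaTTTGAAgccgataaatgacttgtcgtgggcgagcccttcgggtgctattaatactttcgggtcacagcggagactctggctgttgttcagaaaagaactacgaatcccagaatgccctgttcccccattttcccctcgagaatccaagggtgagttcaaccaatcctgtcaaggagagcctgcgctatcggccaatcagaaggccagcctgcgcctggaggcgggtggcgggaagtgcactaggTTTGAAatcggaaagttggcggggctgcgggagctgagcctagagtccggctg
TTTCCCGC was found in 11 of 48 replication promoters (22.9%), against 1.66% of all promoters and 2.57% of those of genes tested, and the median difference was -0.373 with it and -0.289 without. TTTGAA was found in 32 of 46 mitosis promoters (69.6%), against 15.4% of all and 9.97% of those of genes tested, with medians of -0.271 and -0.251.

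The neighbouring lists changed in both directions or little. Of 11 replication-dependent histone genes that passed the filter, out of 28 listed, 5 rose and 1 fell, the 5 becoming 3 when either Control library was left out, and the medians of the 2 IDRmut libraries were 0.421 and 0.113. Their transcripts mostly lack poly-A tails and their levels were low, with H2AC6 at 4.01 and 5.11 CPM in Control and 9.08 and 8.595 CPM in IDRmut. Of 25 p53 targets 8 rose and 2 fell, 40% against 31.6% over all genes, with a median of 0.0135. The growth factor GDF15 rose from 4.41 and 5.701 to 12.2 and 12.2 CPM and the death receptor FAS rose from 23.8 and 26.8 to 33.4 and 33.5 CPM, while the repair gene DDB2 fell from 25.7 and 25.01 to 18.9 and 19.1 CPM. MDM2, the p53 feedback inhibitor, stood at 106 and 99.1 CPM in Control and 104 and 109 CPM in IDRmut and was not called. Among 27 genes of cell death and survival 5 rose and 4 fell, 33.3% against 31.6% over all genes. The 5 became 2 without the first Control or the second IDRmut library and 1 without the second Control library or with DESeq2. APAF1, the scaffold of the apoptosome, was lower, from 33.9 and 33.02 to 23.2 and 21.6 CPM, and so was BCL2, from 10.6 and 10.2 to 7.904 and 6.87 CPM.

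**Figure D5:**
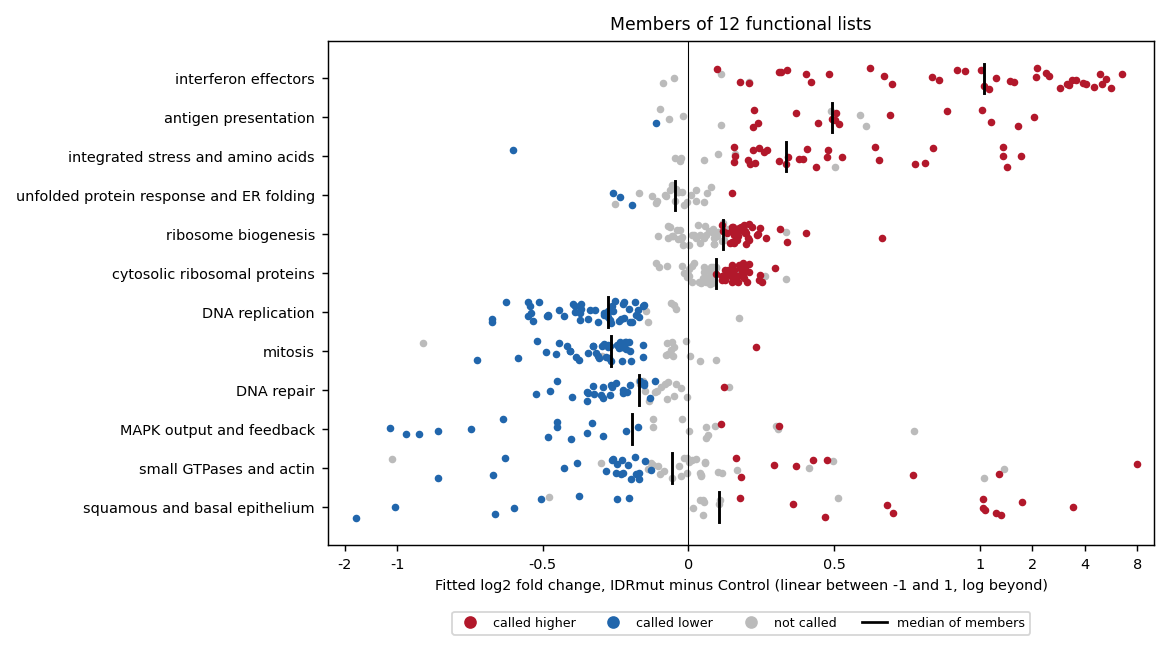
Fitted log2 fold change of every tested member of 12 lists, with called genes in red (higher) or blue (lower), other genes in grey and the list median as a black bar. The axis is linear between -1 and 1 and logarithmic beyond. Interferon effectors spread widely above 0, while replication and mitosis genes gather near -0.276 and -0.265; the VAV3 point near 8 in small GTPases and actin rests on 0 Control counts and is no bound.

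Output genes of the MAPK pathway, the kinase cascade below growth factor receptors, were mostly lower. Of 28 tested 15 fell and 2 rose, with a median of -0.194, and no rise was called without the first Control library. DUSP4, a phosphatase that switches off MAP kinases, fell from 477 and 477 to 227 and 218 CPM, by 1.10 (edgeR adjusted p = 7.6e-13). SPRY4, a feedback inhibitor of receptor signalling, fell from 236 and 233 to 132 and 127 CPM, by 0.86, and the ETS factors ETV1 and ETV4, induced by the pathway, fell from 77.9 and 77.6 to 39.03 and 40.3 CPM and from 61.4 and 61.6 to 34.2 and 30.6 CPM. DUSP6, another feedback phosphatase, fell from 72.3 and 67.1 to 45.6 and 44.2 CPM, with 40.5% of its exon bases overlapped. SPRY4, ETV1 and ETV4 were not called between IDRmut and WT, where SPRY4 stood at 132 and 133 CPM and ETV1 at 39.8 and 42.2 CPM, and over the list 7 members were higher than in WT and 7 lower. FOSL1, an AP-1 subunit, fell from 147 and 152 to 90.2 and 87.5 CPM while WT stood at 149 and 145 CPM.

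Immediate early genes, which respond to stimuli within minutes, split evenly, with 8 of 24 risen and 8 fallen, the 8 rises becoming 4 without the first Control library and 5 without the second Control or the first IDRmut library. JUN and JUNB fell from 235 and 249 to 187 and 171 CPM and from 95.2 and 94.01 to 79.5 and 64.5 CPM, EGR1 rose from 25.3 and 27.8 to 32.6 and 33.7 CPM, and ATF3, also a stress gene, rose from 1.83 and 1.72 to 4.32 and 4.502 CPM. Of 46 receptor tyrosine kinases and ligands 16 rose and 15 fell, the rises becoming 9 without the second Control library. TGFA, a ligand of EGFR, fell from 994 and 974 to 643 and 683 CPM, by 0.57, and EGFR fell from 137 and 138 to 129 and 124 CPM, by 0.13. The ephrin receptors EPHA2 and EPHB2 fell from 957 and 997 to 745 and 654 CPM and from 84.5 and 85.5 to 52.1 and 45.98 CPM, while the ephrin EFNA1 rose from 1.27 and 1.13 to 4.52 and 4.27 CPM and FGFR1, a receptor of fibroblast growth factors, rose from 21.9 and 24.6 to 55.6 and 52.03 CPM (1.21 ± 0.07). EGFR, EPHB2 and EPHA2 were also below WT, and TGFA was above it.

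The integrated stress response is a programme in which translation slows and the factor ATF4 induces genes of amino acid uptake, synthesis and tRNA charging. Of 37 members tested 29 rose and 1 fell, with a median of 0.335, and the medians of the 2 IDRmut libraries were 0.295 and 0.314. ATF4 itself rose from 175 and 174 to 233 and 225 CPM, by 0.39 ± 0.04 (edgeR adjusted p = 1.1e-06). CHAC1, which degrades glutathione, rose from 3.14 and 3.28 to 8.395 and 8.14 CPM, by 1.36 ± 0.15, and TRIB3, a pseudokinase feedback gene, rose from 9.74 and 7.15 to 14.7 and 15.6 CPM, by 0.84 ± 0.12. SLC7A5 and SLC3A2, the 2 chains of an amino acid exchanger, rose from 189.6 and 185 to 273 and 249 CPM and from 138 and 142 to 204 and 185 CPM. The tRNA synthetases AARS1 and WARS1 rose from 244 and 237 to 307 and 301 CPM and from 54.9 and 55.9 to 77.4 and 82.4 CPM. ATF4, the 2 exchanger chains and the 2 synthetases named rose by 0.34 to 0.53 on the log2 scale. The amino acid transporters SLC38A2 and SLC7A11 did not share this rise, with differences of 0.05 and -0.29. VLDLR, a lipoprotein receptor on the list, rose from 7.71 and 7.48 to 24.6 and 25.5 CPM (1.72 ± 0.09). DDIT4, an inhibitor of mTORC1 that is also induced by hypoxia, was the member that fell, from 158 and 156 to 106 and 101.004 CPM, with 41.2% of its exon bases overlapped. Asparagine synthetase ASNS stood at 1.83 and 1.29 CPM in Control and 2.504 and 1.96 CPM in IDRmut with 44.6% overlapped and was not called. Against WT 6 members were higher and 11 lower, with SLC7A5 at 375 and 387 CPM in WT.

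CHAC1 is shown as the called member with the largest change among those whose promoter holds the element of ATF4 and its partners, searched as TGATGNAA on both strands and given in capitals, with the same source and window.
CHAC1 (chr15:40953221-40953520, plus strand): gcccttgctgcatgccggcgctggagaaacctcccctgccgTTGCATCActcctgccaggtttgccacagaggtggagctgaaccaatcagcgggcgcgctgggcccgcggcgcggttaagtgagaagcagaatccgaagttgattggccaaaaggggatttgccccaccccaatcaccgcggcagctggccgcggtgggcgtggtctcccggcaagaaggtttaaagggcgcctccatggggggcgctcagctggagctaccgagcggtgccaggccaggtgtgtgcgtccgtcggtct
The element was found in 8 of 33 integrated stress promoters (24.2%), against 3.67% of all and 1.68% of those of genes tested, and the median difference was 0.358 with it and 0.271 without.

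The unfolded protein response, a neighbouring programme of the endoplasmic reticulum, did not show this pattern. Of 26 genes 1 rose and 3 fell, 15.4% against 31.6% over all genes, with a median of -0.0449, and the 3 falls became 7 without the second IDRmut library. HSPA5, the main ER chaperone, stood at 787 and 797 CPM in Control and 801 and 792 CPM in IDRmut and HSP90B1 at 1488 and 1501 CPM in Control and 1410.3 and 1501 CPM in IDRmut, and neither was called. The disulfide isomerases PDIA4 and P4HB fell from 541 and 539 to 459 and 459 CPM and from 1026 and 1049 to 942 and 870.4 CPM. Against WT 8 of the 26 were higher and none lower. Of 36 cytosolic chaperone genes 9 rose and 3 fell, 33.3% against 31.6% over all genes, with a median of 0.0399. The 9 became 4 without the first Control library, 5 without the second and 14 without the first IDRmut library. The 3 falls became 1 without the first Control library, 7 without the first IDRmut library and 5 without the second. CRYAB, a small heat shock protein, rose from 5.48 and 5.38 to 23.3 and 22.9 CPM (2.09 ± 0.10), below the 58.5 and 55.4 CPM of WT, with 20.6% of its exon bases overlapped. HSPB1 rose from 61.4 and 65.1 to 100.5 and 89.9 CPM and HSP90AA1 rose from 1281 and 1257 to 1421 and 1499.9 CPM, while the co-chaperone DNAJB1 fell from 254 and 259 to 216 and 215 CPM. CRYAB and HSPB1 thus stood apart from a list with a median near 0.

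Genes of ribosome biogenesis and of the ribosome itself shifted up slightly. Of 68 biogenesis genes 32 rose and none fell, with a median of 0.119, but the 32 became 14 without the first Control library and 16 without the second. WDR3, a protein of small subunit assembly, rose from 169 and 157 to 254 and 262 CPM (0.67 ± 0.04), with 17.1% of its exon bases overlapped, and NIP7, which acts on the large subunit, rose from 78.3 and 74.1 to 98.6 and 103 CPM (0.40 ± 0.05). NCL and NPM1, abundant nucleolar proteins, stood at 899 and 934 CPM in Control and 948 and 1000.1 CPM in IDRmut and 1041 and 1068 CPM in Control and 1091 and 1151 CPM in IDRmut and were not called. Of 79 cytosolic ribosomal proteins 35 rose and none fell, with a median of 0.0954, which became 17 without the first Control library, 23 without the second and 52 when libraries were scaled by their totals. RPL28 rose from 296 and 317 to 387 and 367 CPM (0.30 ± 0.04) and RPL23 rose from 339.8 and 350.4 to 399 and 423 CPM (0.25 ± 0.04), while RPLP0 stood at 1941 and 2006 CPM in Control and 1947 and 1736 CPM in IDRmut and was not called. Against WT 38 of the 68 biogenesis genes and 30 of the 79 ribosomal proteins were higher, with 2 and 0 lower. WDR3 was the only member of the 2 lists to reach 1.5-fold.

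Among 76 nuclear-encoded genes of the respiratory chain 3 rose and 12 fell, the 3 becoming 1 without the first Control and 7 without the first IDRmut library, with a median of -0.024, 19.7% against 31.6% over all genes, and the 12 became 7 without the first Control, 5 without the second Control and 19 without the second IDRmut library. Complex III's UQCRC1 fell from 297 and 302 to 244 and 238 CPM. Of 15 mitochondrially encoded genes 7 rose and 1 fell, the 7 becoming 3 without the first Control library and the 1 becoming 4 without the second IDRmut library, but the medians of the 2 IDRmut libraries were 0.0433 and 0.204, so the libraries differed as much as the groups did. MT-RNR1, a mitochondrial ribosomal RNA, rose from 356 and 364 to 508 and 574 CPM, and MT-ND2, a subunit of complex I, rose from 1429 and 1633 to 1965 and 2326 CPM, whereas MT-CO1, a subunit of complex IV, stood at 14808 and 15208 CPM in Control and 14339.6 and 14509 CPM in IDRmut and was not called.

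Squamous epithelium is marked by basal keratins, desmosomes and the factors TP63 and SOX2. Of 29 genes tested, out of 51 listed, 12 rose and 8 fell, with a median of 0.105, and the most abundant members were among those that fell. KRT14, a basal keratin, fell from 1414 and 1434 to 993 and 888 CPM, by 0.60, its partner KRT5 rose from 14.7 and 12.8 to 29.5 and 28.4 CPM (1.07 ± 0.09), and KRT6A, a keratin of activated epithelium, rose from 28.6 and 28.7 to 100.1 and 93.7 CPM (1.76 ± 0.06). S100A2, a calcium-binding protein of basal cells, fell from 773 and 746 to 376 and 369 CPM, by 1.03. The desmosome gene DSP rose from 50.7 and 51.4 to 83.02 and 82.9 CPM, TP63 rose from 24.2 and 22.9 to 32.01 and 33.1 CPM and SOX2 fell from 351 and 327 to 298 and 289.8 CPM. Keratins thus moved in both directions at once. Against WT the list was one-sided: 21 of 29 were higher in IDRmut and 5 lower, with KRT14 at 636 and 608 CPM and KRT5 at 7.94 and 8.69 CPM in WT. PADI3, which modifies keratin-associated proteins in the epidermis, fell from 14.5 and 14.3 to 4.71 and 4.09 CPM, by 1.71.

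Of 43 genes of simple and secretory epithelium 19 passed the filter, of which 10 rose and 5 fell, with a median of 0.689 from a median Control level of 1.9 CPM. The median over all genes that averaged 1 to 5 CPM was 0.117. Among genes averaging 5 CPM or more only 4 rose, and the 5 falls became 2 without the first Control or the second IDRmut library and 3 without the second Control library. KRT8, the type II keratin of simple epithelium, rose from 12.7 and 11.3 to 76.001 and 68.9 CPM, by 2.59 ± 0.08 (edgeR adjusted p = 2.0e-13), and KRT18, its partner, rose from 1.52 and 1.77 to 7.81 and 6.37 CPM, by 2.10 ± 0.20. AGR2, a secretory disulfide isomerase, had 2 counts in Control and a ratio of 47.93 (95% counting interval 12.9 to 401). ELF3, an epithelial transcription factor, rose from 0.964 and 1.398 to 6.48 and 5.68 CPM, MUC1 and MUC20, transmembrane mucins, rose from 1.93 and 1.88 to 4.71 and 4.64 CPM and from 0.558 and 0.753 to 4.17 and 3.87 CPM, the latter with 42.8% of its exon bases overlapped, and CLDN1, of tight junctions, rose from 139 and 135 to 215 and 227 CPM. CLDN4, also of tight junctions, fell from 125 and 134 to 104 and 88.8 CPM, and MUC16 stood at 309 and 319 CPM in Control and 364 and 322 CPM in IDRmut and was not called. EPCAM and CDH1 stayed near 0 beside these rises, and the summed epithelium markers were 141.3 and 149.5 CPM in Control and 190.1 and 166 CPM in IDRmut.

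Extracellular matrix genes mostly rose, 29 of 52 against 9 that fell, with a median of 0.288 and 11 rises of at least 2-fold. THBS1, a matricellular protein that binds many receptors, rose from 1658 and 1651 to 2649 and 2599.6 CPM, and EFEMP1, a fibulin, rose from 844 and 845 to 1283 and 1337 CPM; neither was called between IDRmut and WT. COL11A1, a fibrillar collagen, rose from 485 and 480.1 to 711 and 689.9 CPM, and FKBP10, a collagen chaperone of the endoplasmic reticulum, rose from 0.203 and 0.323 to 9.52 and 9.004 CPM (5.12 ± 0.40). BGN, a small proteoglycan, rose from 2.64 and 2.15 to 10.3 and 9.91 CPM (2.07 ± 0.16), and SPARCL1 rose from 4.41 and 4.95 to 15.2 and 15.1 CPM (1.70 ± 0.12); WT stood at 2.99 and 2.84 CPM and 0.392 and 0.409 CPM. FN1, or fibronectin, fell from 246 and 252 to 190.3 and 184 CPM, and COL17A1, a collagen of hemidesmosomes, fell from 1307 and 1339 to 1181 and 1096 CPM. Matrix genes at low and at high levels thus rose, while fibronectin and the hemidesmosome collagen went down.

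Of 36 genes of the mesenchymal transition 18 rose and 6 fell, with a median of 0.206. CALD1, an actin-binding protein, rose from 175 and 172 to 308 and 324 CPM and LOX, which crosslinks collagen, rose from 27.9 and 26.1 to 54.3 and 57.7 CPM. MMP2, a matrix metalloprotease, fell from 571 and 603 to 319.8 and 292 CPM, by 0.94, and tenascin TNC fell from 1949 and 1967 to 1516 and 1419 CPM. VIM, or vimentin, the filament protein of mesenchymal cells, stood at 1217 and 1219 CPM in Control and 1187 and 1215 CPM in IDRmut and was not called. Among 36 proteases and inhibitors 17 rose and 9 fell, the latter becoming 5 without the second Control library. The 17 rises became 11 among genes averaging 5 CPM or more. PI15, a secreted protease inhibitor, rose from 20.2 and 19.8 to 84.1 and 86.6 CPM, by 2.09 ± 0.06, with WT at 19.1 and 21.001 CPM. TIMP3, an inhibitor of metalloproteases, rose from 159 and 160.1 to 334 and 316 CPM, and ADAM12 rose from 27.1 and 25.2 to 57.05 and 56.5 CPM. PLAT, a plasminogen activator, fell from 183 and 189 to 96.96 and 92.6 CPM while its relative PLAU rose from 145 and 153 to 217 and 213 CPM, with 31.1% of exon bases overlapped.

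Among 36 integrins and other adhesion genes 16 rose and 10 fell, and the rises became 8 among genes averaging 5 CPM or more. The laminin-binding integrin chains ITGA6, ITGA3 and ITGB4 fell from 489.96 and 481 to 251 and 259.99 CPM, from 4221 and 4327 to 3320.02 and 2964 CPM and from 1485 and 1535 to 1153 and 1003 CPM, and LAMB3, a chain of laminin-332, rose from 44.6 and 42.97 to 86.4 and 77.99 CPM. CDH5, a cadherin of endothelial junctions, fell from 210.3 and 216 to 93.97 and 90.5 CPM, by 1.21, yet was above WT at 39.2 and 39.7 CPM, and CDH13 rose from 75.3 and 83.7 to 159.6 and 155 CPM. NCAM1, a neural adhesion molecule, rose from 0.304 and 0.161 to 3.09 and 3.96 CPM and PCDH1, a protocadherin, rose from 2.08 and 1.56 to 8.98 and 8.96 CPM. The integrin chains named as fallen were abundant, while ITGA5, another integrin chain, was higher by 0.87 on the log2 scale. Several of the genes that rose started below 3 CPM.

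Genes responsive to TGF-beta and BMP ligands went both ways, with 8 of 28 risen and 12 fallen and a median of -0.0668. TGFBI, a matrix protein, rose from 125 and 130.3 to 231 and 223 CPM, TAGLN, of the actin cytoskeleton, rose from 8.57 and 8.07 to 16.8 and 13.9 CPM and the activin subunit INHBA rose from 3.04 and 3.17 to 6.68 and 6.18 CPM. ID2, a helix-loop-helix inhibitor, fell from 121 and 121 to 86.4 and 88.8 CPM. Against WT the list was one-sided, with 19 of 28 lower and 3 higher. Targets of YAP and TEAD, which respond to cell shape and density, included 4 of 27 that rose and 8 that fell. Called targets made up 44.4%, against 31.6% over all genes. Against WT 15 of 27 were lower and 3 higher. MYOF fell from 2226 and 2239 to 1569 and 1580.2 CPM, AMOTL1 fell from 199 and 203 to 129 and 132 CPM, and ANKRD1 stood at 179 and 187 CPM in Control and 182 and 205 CPM in IDRmut, was not called, and was at 346 and 352 CPM in WT. CCN1, a matricellular target, rose from 203 and 218 to 253 and 251 CPM, and IGFBP3 rose from 14.4 and 11.8 to 34.6 and 36.1 CPM.

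Notch signalling passes between neighbouring cells through ligands such as JAG1. Of 25 Notch genes 6 rose and 7 fell, the 7 becoming 4 without the first Control library. JAG1 fell from 309 and 307 to 203 and 196 CPM, the receptor NOTCH1 fell from 84.2 and 86.8 to 63.9 and 58.3 CPM while NOTCH2 stood at 289 and 293 CPM in Control and 298 and 287 CPM in IDRmut and was not called, and LFNG, which sugar-modifies the receptor, fell from 46.8 and 49.2 to 27.4 and 27.6 CPM. The targets HEY1 and HES4 rose from 3.96 and 3.603 to 8.89 and 12.3 CPM and from 2.23 and 2.26 to 4.47 and 5.05 CPM, and DTX4, a regulator of the receptor, rose from 2.38 and 2.58 to 10.2 and 9.64 CPM. Of 35 Wnt genes 10 rose and 8 fell. The receptor FZD7 rose from 52.5 and 48.1 to 83.7 and 79.2 CPM, LGR5, a receptor that amplifies the signal, rose from 4.21 and 4.195 to 17.3 and 18.8 CPM, and the secreted antagonists SFRP1 and DKK1 rose from 63.6 and 65.6 to 114 and 119 CPM and from 512 and 522 to 583 and 623 CPM. The ligand WNT7B fell from 40.2 and 44.2 to 24.3 and 21.8 CPM while WNT5B rose from 1.42 and 1.67 to 6.78 and 5.59 CPM, TCF7L2, a factor of the pathway, fell from 79.5 and 75.8 to 53.3 and 53.6 CPM, and beta-catenin CTNNB1 stood at 1013 and 1034 CPM in Control and 1028 and 1047 CPM in IDRmut and was not called. Of the Notch and Wnt members 52% and 51.4% were called, against 31.6% over all genes. The genes named, picked for a small adjusted p or a high level, lay at several steps of each pathway without a shared sign.

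Of 43 glycolysis and hypoxia genes 16 rose and 8 fell, with a median of 0.0447, and the 8 became 4 without the first Control library and 5 without the second. The carbonic anhydrases CA12 and CA9 rose from 4.31 and 4.84 to 15.8 and 15.01 CPM and from 5.12 and 4.95 to 14.5 and 14.5 CPM, the latter with 38.5% of its exon bases overlapped, and the aldolase ALDOC rose from 9.79 and 9.896 to 25.2 and 23.2 CPM. The abundant glycolytic enzyme ENO1 fell from 7112 and 7165 to 5732 and 5422 CPM, by 0.36, and lactate dehydrogenase LDHA fell from 46.1 and 43.3 to 32.9 and 34.02 CPM, by 0.42, while GPI rose from 623 and 635 to 818 and 790.5 CPM. PKM fell from 5090.4 and 5183 to 4913 and 4729 CPM, by 0.09, a call lost when either Control library was left out. Against WT 19 of 43 were higher and 2 lower, with ENO1 at 4574 and 4600.1 CPM and CA9 at 3.33 and 3.51 CPM in WT. Among 24 genes of glucose sensing 5 rose and 12 fell, the falls becoming 7 without the first Control library. TXNIP, which limits glucose uptake and is induced by glucose, rose from 14.4 and 15.7 to 34.8 and 34.5 CPM and stood at 8.38 and 8.19 CPM in WT, and glycogen phosphorylase PYGB fell from 1469.9 and 1501 to 1284 and 1162 CPM.

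Sterol and fatty acid genes split, with 8 of 40 risen, or 13 with library totals, 10 fallen and a median of -0.00299. Called members made up 45%, against 31.6% over all genes. The cholesterol exporter ABCA1 and the lipogenic factor SREBF1 fell from 128 and 129.6 to 90.5 and 82.6 CPM and from 373 and 379 to 274 and 245 CPM, and SCD, a fatty acid desaturase, fell from 2409 and 2397 to 1899.5 and 1891 CPM. The enzymes DHCR7 and FADS1 rose from 104 and 100.8 to 139 and 134 CPM and from 130.5 and 132 to 174 and 169 CPM, and FASN stood at 878 and 883 CPM in Control and 924 and 761 CPM in IDRmut and was not called. Among 25 genes of lipid mediators, nitric oxide and retinoids 7 rose and 6 fell, and 4 of the falls were at least 2-fold. The 7 rises became 4 among genes averaging 5 CPM or more. NOS2, the inducible nitric oxide synthase, fell from 23.5 and 25.3 to 6.68 and 5.68 CPM, by 1.98, and PTGES, which makes prostaglandin E2, fell from 106 and 113 to 33.9 and 30.7 CPM, by 1.76. PTGES was still high in WT, at 91.5 and 92.8 CPM, while NOS2 was low there, at 4.26 and 3.95 CPM. Of 38 NRF2 targets and detoxification genes 9 rose and 8 fell, 44.7% called against 31.6% over all genes. The 8 became 5 without the first Control library. GSTP1, a glutathione transferase, fell from 211 and 222 to 123 and 115 CPM, by 0.86, the ferritin light chain FTL rose from 276 and 286 to 373 and 336 CPM, and the cystine transporter SLC7A11 fell from 104 and 99.4 to 82.4 and 84.3 CPM.

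ACK1 acts on endocytosis and the actin cytoskeleton. Both lists leaned to falls, with 37.3% and 50.8% of members called, against 31.6% over all genes. Their median Control levels were 74.1 and 62.9 CPM. Of all genes between 20 and 100 CPM 36.6% were called, and these too leaned to falls with TMM, 1186 against 805 rises. Of 51 genes of clathrin endocytosis and endosomes 4 rose and 15 fell, the 4 becoming 2 when either Control library was left out, with a median of -0.0689, and against WT 2 were higher and 18 lower. CAV1, the scaffold of caveolae, fell from 1479.9 and 1494 to 1066 and 1148 CPM, SH3KBP1, an adaptor that takes receptors into the cell, fell from 83.6 and 80.6 to 64.7 and 65.8 CPM, and ARAP2, which regulates small GTPases, fell from 18.4 and 17.3 to 5.11 and 4.64 CPM, by 1.88. DNM1, a dynamin that cuts vesicles from the membrane, rose from 4.11 and 4.52 to 12.96 and 13.2 CPM, and EHD3, of endosome recycling, had 2 counts in Control and a ratio of 35.27 (95% counting interval 9.44 to 296). Of 59 small GTPase and actin genes 9 rose and 21 fell, with a median of -0.0572, and against WT 5 were higher and 23 lower. FLNA, an actin crosslinker, fell from 4115 and 4296 to 3793 and 3281 CPM, and ACTN1 fell from 549 and 546 to 458 and 442 CPM. ARHGAP29, which switches off small GTPases, rose from 252 and 255 to 426 and 441 CPM (0.77 ± 0.04), and RHOB rose from 43.2 and 41.4 to 61.2 and 52.8 CPM. CDC42, the GTPase that ACK1 binds, stood at 255 and 255 CPM in Control and 259.9 and 270.04 CPM in IDRmut with 59.4% of its exon bases overlapped and was not called. VAV3, an exchange factor of small GTPases, had 0 and 0 counts in Control and stood at 1.33 and 1.501 CPM in IDRmut.

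Among 65 lineage transcription factors 13 rose and 17 fell, with a median of -0.0633, and against WT 8 were higher and 25 lower. The 13 rises became 6 among genes averaging 5 CPM or more. EHF, an ETS factor of epithelia, rose from 119 and 116 to 202 and 205 CPM (0.79 ± 0.04), FOXI1, of ion-transporting epithelial cells, rose from 2.28 and 2.15 to 8.64 and 7.73 CPM (1.88 ± 0.16), and TFAP2C, of ectoderm, fell from 164 and 166 to 115 and 115 CPM. The steroid receptor NR3C1 and the factor KLF5 fell from 265 and 264 to 228 and 229.7 CPM and from 346 and 331 to 291 and 296 CPM. Of 50 chromatin genes 4 rose and 19 fell, the 4 becoming 2 without the first Control library and 1 without the second, with a median of -0.0866: the Polycomb methyltransferase EZH2 fell from 119 and 128 to 89.2 and 92.1 CPM, the DNA methyltransferase DNMT1 fell from 423 and 437 to 357 and 343 CPM, and the lamins LMNB1 and LMNA fell from 309.6 and 314 to 249 and 244 CPM and from 999 and 992 to 802 and 699 CPM. Of 17 imprinted genes 3 rose and 6 fell, with DIRAS3, a growth-restraining GTPase, higher from 6.24 and 7.37 to 16.8 and 15.1 CPM and MEST lower from 443 and 435 to 347 and 339 CPM. In the MYC network 5 of 17 rose and 2 fell, 41.2% called against 31.6% over all genes. The 5 became 3 without either Control or either WT library. The 2 became 1 without either Control or the second IDRmut library. Called chromatin genes thus mostly fell. The median over all tested members was -0.0866, against -0.276 for DNA replication, where 46% and 89.1% of members were called.

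Surface and neural genes were mixed. Of 34 ion channels and transporters 12 rose and 10 fell, which became 7 and 6 without the first Control library, and the 12 also became 7 without the second. The gap junction gene GJB2 rose from 3.04 and 2.42 to 8.49 and 10.4 CPM, the chloride channel ANO1 fell from 31.9 and 31.7 to 19.8 and 17.1 CPM, and SLC6A6, a taurine transporter, rose from 314 and 312 to 404 and 408 CPM. Of 38 G protein-coupled receptors and modulators 12 rose and 6 fell, the 12 becoming 7 among genes averaging 5 CPM or more. ADGRG1 and ADGRL3, adhesion receptors, rose from 11.2 and 12.9 to 38.2 and 36.9 CPM and from 8.78 and 8.498 to 20.8 and 22.4 CPM, while EDN1, or endothelin, and its receptor EDNRA fell from 28.96 and 32.2 to 20.5 and 19.2 CPM and from 54.1 and 51.1 to 31.8 and 31.6 CPM. Of 41 neural guidance and synapse genes 8 rose and 12 fell, 48.8% called against 31.6% over all genes. The 12 became 7 without the second Control library. The 8 rises became 2 among genes averaging 5 CPM or more, and 3 members had 0 counts in Control. SYT12, a synaptotagmin, rose from 43.6 and 42.3 to 105 and 95.5 CPM, the guidance receptor UNC5C fell from 49.001 and 48.8 to 32.6 and 33.5 CPM and netrin NTN4 fell from 146 and 142 to 106 and 104 CPM.

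Lists of protein and RNA turnover had 15.6% (proteasome), 28.9% (splicing) and 35% (autophagy) of members called, against 31.6% over all genes. Of 32 proteasome genes 1 rose and 4 fell, the 4 becoming 1 without the second Control library, and PSMA7, a core subunit, fell from 335 and 337 to 302 and 278 CPM; against WT, however, 17 were lower and none higher. Of 40 autophagy and lysosome genes 9 rose and 5 fell, becoming 4 and 3 without the first Control library, with the receptor SQSTM1 higher from 155 and 152 to 201 and 179 CPM and GABARAPL1, of the autophagosome membrane, higher from 19.7 and 20.9 to 29.2 and 30.8 CPM. Of 45 splicing and RNA-binding genes 3 rose and 10 fell, the 10 becoming 6 when either Control library was left out. The 3 rises became 11 without the first IDRmut library, 7 with upper-quartile scaling and 9 with library totals. The nuclear non-coding RNAs MALAT1 and NEAT1 rose from 301 and 291 to 373 and 398 CPM and from 988 and 971 to 1119.6 and 1191 CPM, and the splicing regulator HNRNPA2B1 fell from 1165 and 1213 to 968 and 1059.6 CPM.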

How the data were processed

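Polyadenylated RNA of 6 H2170 libraries was sequenced, 2 each from cells with GFP (Control), ACK1 (WT)-GFP and ACK1 (IDRmut)-GFP. The authors deposited a table of raw counts, 1 row per gene and 1 column per library. According to the submitters' processing notes, HISAT2 2.2.1, SAMtools 1.14 and featureCounts 2.0.1 were used with GRCh38. Annotation release, strandedness and multi-mapping setting are not given in the sources used, so overlapping genes and near-identical copies are uncertain.

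Of 61487 gene IDs, 61369 were matched to current names and 105 to names of GENCODE release 29, which also gave coordinates and exon overlaps; it may not be the authors' release. Genes were filtered with edgeR's filterByExpr (minimum count 10, minimum total 15). All 6 libraries were scaled with TMM and fitted by group means in edgeR 4.0.16 (R 4.3.3, limma 3.58.1), which pools the spread over the groups (biological coefficient of variation 0.0294, 3 residual and 13.5 prior degrees of freedom). IDRmut was compared with Control and with WT by edgeR's quasi-likelihood test, adjusting p with the Benjamini-Hochberg procedure over the 16591 genes and a threshold of 0.05. A gene with no Control count was given a fold against a floor of 3 counts over the group, and one with 1 to 3 counts was given its ratio and a 95% interval from counting error. The scripts were tested on simulated data. The libraries held 20154935 and 19128111 counts (Control), 20033289 and 33540998 (WT) and 20346572 and 21922477 (IDRmut).

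The gene lists and the comparison were chosen with earlier results of these data known. Named genes are TNK2, STAT5A and STAT5B; the 15 largest rises and 15 largest falls among called genes that average 5 CPM or more in groups that do not overlap; per list up to 6 members with the smallest adjusted p and the 2 with the highest level; the 8 genes with at most 3 counts in one group and the most in the other; the 10 called genes with the highest Control level per kilobase; and the 10 genes that differ most between the IDRmut libraries. The text describes those that carry a functional group. Some of them are not reported here. ANKRD1, ASNS, BGN, CDC20, CDC42, CHAC1, CISH, DUSP6, EGFR, EGR1, FN1, HSPA5, IFI27, IRF7, ISG15, MDM2, MUC1, PSMB8, PSMB9, RHOB, SPARCL1, SPC25, STAT2, TRIB3 and VIM fall outside this rule and were chosen after their values were seen. Alternatives were other scalings (RLE, upper quartile, library totals), other filters, 4 libraries only, the replicate number as a block, DESeq2 1.42.0, and leaving out each library in turn.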

Additional observations from a re-analysis of the deposited data

How the results depend on the processing

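The number of genes called between IDRmut and Control was 5244 with RLE factors, 5283 with upper-quartile scaling, 5307 with library totals, 5138 without a filter, 4262 among genes averaging 5 CPM or more and 4771 with the 4 libraries alone. DESeq2 called 3290 (1541 higher, 1749 lower), and 2534 between IDRmut and WT (1186 higher, 1348 lower). Leaving out 1 library gave 3451 (without the first Control library) to 5522 (without the first IDRmut library) calls against Control, 1643 to 2623 higher and 1808 to 2899 lower. Against WT it gave 2590 (without the second WT library) to 4761, with 1218 to 2306 higher and 1372 to 2455 lower. The lone library left in a group was assumed to vary like the others. In none of the settings for IDRmut against Control was a gene called in the direction opposite to its main call; this was not counted against WT. MT-ATP8, not called with all libraries, was called lower without the second IDRmut library (-0.27) and higher without the first (0.61); the cause was not tested. Of 116 list counts, 34 moved by over 1.5 times without the first Control library, 32 without the second and 24 with DESeq2.

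The labels number the replicates, but same-numbered libraries did not deviate together. Correlations over 10908 genes were -0.0199 for Control and WT, -0.0485 for Control and IDRmut and -0.13 for WT and IDRmut. No pairing was therefore used in the main fit, although such correlations cannot exclude a batch shared between libraries. With the replicate number as a block, 4836 genes were called against Control, 4807 of them shared with the main calls in the same direction, and 3966 against WT; 11 of the named genes lost their call. With 2 libraries per group the spread is estimated from few values, and changes of low genes are the least certain.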
